A study of Mus musculus with 4 samples.

Results

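The NF-κB subunits and their IκB inhibitors were followed as 10 genes across 4 RNA-seq libraries. All come from 4T1 cells, a line established from a mammary carcinoma of the mouse. The genes were taken by symbol from the deposited tables, and all 10 were found among the 24411 genes listed. The 5 subunits are Rela, Nfkb1, Rel, Relb and Nfkb2, the 3 classical inhibitors are Nfkbia, Nfkbib and Nfkbie, and the 2 nuclear IκB proteins are Nfkbiz and Bcl3. The study compares 2 controls with 2 libraries of the genotype CD95ko. The CD95ko cells are clones, each grown from 1 sorted cell, of a 4T1 line that carries a Cas9 lentivirus and had been selected with blasticidin, and they received a pair of guide RNAs against exon 9 of the CD95 gene (Fas). Per the labels' protocols the other RNA sources were control 4T1 cells and the Cas9 line, but the sample labels do not tie either of these to control 1 or control 2. Clone and genotype, and the handling of the clones, cannot be told apart in this design, and no batch is given.

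NF-κB is a family of dimeric transcription factors. In resting cells IκB proteins hold the dimers in the cytoplasm. Signals from TNF, interleukin-1 and related receptors activate the IKK kinases, which mark IκB for degradation and release RelA:p50 (the canonical pathway), while the kinase NIK drives the processing of p100 and releases RelB:p52 (the noncanonical pathway). Several genes of the family are themselves NF-κB targets, so that the circuit feeds back on itself. CD95 is one of the receptors known to feed into the circuit.

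The promoters are shown first because the members that share a κB element can be read from them. A window of 300 bases (250 before and 50 after an annotated start, RefSeq, GRCm38.p6) was at hand for 7 of the 10 genes and not for Nfkb1, Relb or Nfkbiz. Both strands were searched for the κB consensus motif, the element that the dimers bind. It matched in 5 of the 7 genes, namely Nfkb2, Rel, Nfkbia, Nfkbie and Bcl3, and had no match in the windows of Rela and Nfkbib. Among the tested genes with a window, 545 of 8549 (6.38%) held a match in at least 1 window, and 4.51% of all 32851 windows did. Nfkb2 has 3 annotated starts and so 3 chances of a match. The sequences of Nfkbia, of the first start of Nfkb2, of Bcl3 and, without a match, of Nfkbib follow on the strand of the gene, 5′ to 3′, with the bases of κB matches in capitals.
Nfkbia (chr12:55492598-55492897, reverse strand): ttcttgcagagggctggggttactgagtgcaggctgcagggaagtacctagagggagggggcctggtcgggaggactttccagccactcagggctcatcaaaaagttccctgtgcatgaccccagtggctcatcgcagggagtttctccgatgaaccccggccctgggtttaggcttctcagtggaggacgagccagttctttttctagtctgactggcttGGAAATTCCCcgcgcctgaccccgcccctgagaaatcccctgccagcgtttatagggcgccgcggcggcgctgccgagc
Nfkb2, first start (chr19:46304487-46304786, forward strand): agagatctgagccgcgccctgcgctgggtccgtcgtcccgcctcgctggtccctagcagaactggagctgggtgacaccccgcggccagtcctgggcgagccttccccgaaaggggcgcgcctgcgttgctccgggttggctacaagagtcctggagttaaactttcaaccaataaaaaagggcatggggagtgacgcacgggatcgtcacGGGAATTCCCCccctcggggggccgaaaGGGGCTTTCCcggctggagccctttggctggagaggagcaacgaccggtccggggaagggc
Bcl3 (chr7:19822706-19823005, reverse strand): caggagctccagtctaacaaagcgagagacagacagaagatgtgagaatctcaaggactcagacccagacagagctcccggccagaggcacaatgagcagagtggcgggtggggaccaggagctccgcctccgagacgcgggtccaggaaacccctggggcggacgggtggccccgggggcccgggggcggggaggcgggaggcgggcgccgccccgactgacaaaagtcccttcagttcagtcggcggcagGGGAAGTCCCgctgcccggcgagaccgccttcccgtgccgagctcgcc
Nfkbib (chr7:28766595-28766894, reverse strand): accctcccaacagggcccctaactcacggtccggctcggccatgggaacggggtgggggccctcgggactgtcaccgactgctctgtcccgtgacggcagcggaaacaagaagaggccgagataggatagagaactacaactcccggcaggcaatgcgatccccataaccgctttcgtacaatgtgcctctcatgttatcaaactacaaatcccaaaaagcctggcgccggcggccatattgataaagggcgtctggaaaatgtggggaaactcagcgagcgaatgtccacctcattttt

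The match of Nfkbia, GGAAATTCCC, begins 29 bases before the start. Nfkb2 held the palindromic match GGGAATTCCC 39 bases before its first start, a second match that overlaps it by all but 1 base, and GGGGCTTTCC at 11 bases before that start. The windows of its other 2 starts overlap and share 1 match, GGGACTTTCC, and the second start also has GGAATGTCCC 236 bases before it. Rel held GGGAAATCCC, again with an overlapping second match, 92 bases before its start, and Nfkbie held GGGGGATTCC 106 bases before its start. In Bcl3 the match GGGAAGTCCC lies within the transcript, from its base 3. A match is a run of letters, and binding was not measured here.

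**Figure D1:**
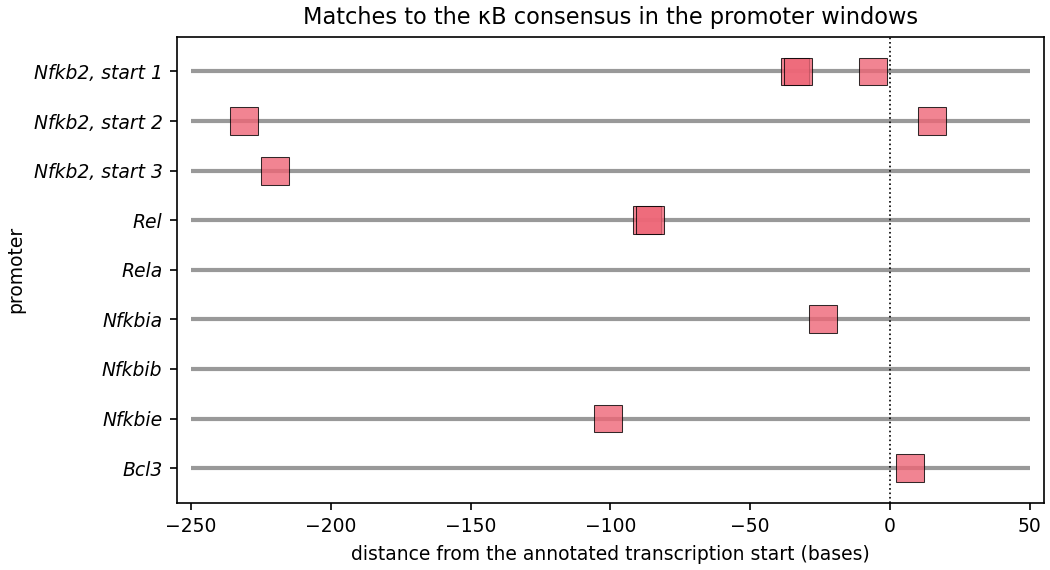
Positions of κB consensus matches (boxes, 10 bases each) in the 9 promoter windows of 7 genes, by distance in bases from the annotated transcription start (dotted line). Matches lie in all 3 windows of Nfkb2 and in those of Rel, Nfkbia, Nfkbie and Bcl3, and the windows of Rela and Nfkbib hold none.

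Levels are given as TPM, a share of all transcripts that is scaled for transcript length, so that genes can be set side by side. The targeted gene was looked at first: Fas stood at 49.4 and 39.2 TPM in the controls, 15.8 in the library labelled CD95ko1 and 49.5 in the library labelled CD95ko2. Its transcript was thus not lower in the latter, a gene-level value does not resolve exon 9, and every direction below refers to libraries as labelled. Epithelial markers were abundant in all libraries, with 7 of 7 detected and a summed level of 5576 to 5920 TPM in the controls and 9604 to 13810 TPM in the libraries labelled CD95ko. Of 8 leukocyte markers with a row, 5 (Ptprc, Adgre1, Cd3e, Itgam and Lyz2) were listed at 0 in all 4 libraries, and the summed level was 46.2 to 57.8 TPM in the controls and 53.0 and 253.4 TPM in CD95ko1 and CD95ko2, from Cd68, Cd14 and Csf1r. Endothelial and fibroblast markers summed to at most 0.28 and 4.67 TPM. The part of the higher epithelial markers in the results below was not tested.

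The summed level of the family was lower in both libraries labelled CD95ko. Nfkbia and Nfkb2, with control means of 485 and 348 TPM, weigh most in that sum. Summed over the 10 genes, transcripts came to 1391 and 1392 TPM in the controls, 506.5 TPM in CD95ko1 and 654 TPM in CD95ko2. Both CD95ko values lay below both control values for 7 members (Rela, Nfkb1, Relb, Nfkb2, Nfkbia, Nfkbib and Bcl3), and no member lay above both. Of all 11167 tested genes, 18.3% lay below both controls and 29.2% above. In limma, fitted to log2(TPM + 1) of all tested genes, 6 members had an unadjusted p under 0.05 and all 6 were lower, where 5.68% of tested genes were lower and 9.25% higher at that p (634 and 1033 genes, or 895 and 967 after quantile normalization). None of the 10 passed 0.05 after Benjamini-Hochberg adjustment over all genes in limma, and 0.0537% of tested genes (6) did. The median log2 fold change of the 10 members was -1.35, against 0.13 for all tested genes. With quantile normalization the median of all genes was 0.002, and the sign of each member was unchanged. An exact permutation test of 2 against 2 libraries cannot go below a two-sided p of 0.333, so single genes have model-based p-values only. The p-values measure only the spread between these libraries, and in bulk RNA fewer expressing cells and less RNA per cell cannot be told apart.

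**Figure D2:**
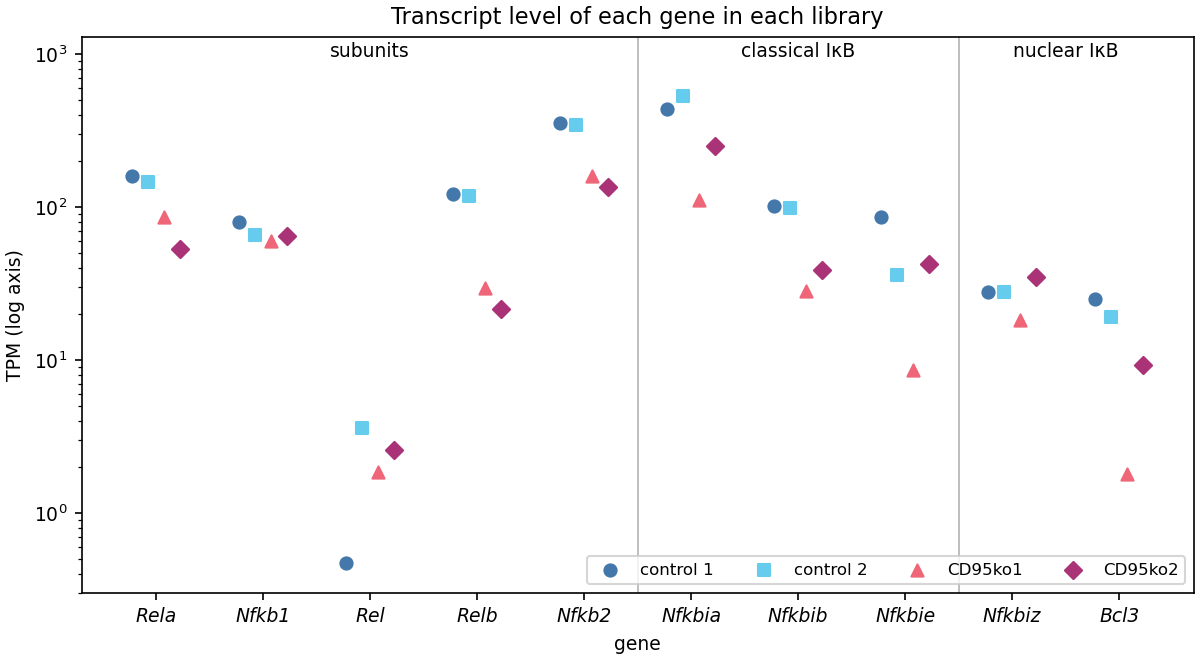
TPM (log axis) of each of the 10 genes in the 4 libraries, 1 point per library, ordered by role. Relb, at 122 and 118 TPM in the controls and 29.4 and 21.6 TPM in the libraries labelled CD95ko, shows the widest gap between groups among the subunits, while the points of Nfkb1 lie between 59.9 and 80.2 TPM.

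Among the subunits Relb had the most negative estimate, while Nfkb2 and Rela were close to each other. Relb (chr7:19606217-19629438, GENCODE M21, reverse strand), which encodes RelB, the activating partner in the noncanonical dimer, was at 121.7 and 117.6 TPM in the controls, 29.4 in CD95ko1 and 21.6 in CD95ko2. The groups did not overlap, with control 2 at 0.967 times control 1 and CD95ko2 at 0.732 times CD95ko1. The mean in the libraries labelled CD95ko was 21.3% of the control mean, with a log2 fold change of -2.20 ± 0.36 SE (limma adjusted p = 0.0676), the smallest p among the 10 genes. Nfkb2 (chr19:46304320-46312385, forward strand) encodes p100, which restrains RelB until it is processed to p52. It was at 354.7 and 341.9 TPM in the controls, 160.8 in CD95ko1 and 135.7 in CD95ko2. The groups were apart here too, with a CD95ko mean of 42.6% of the control mean (log2 fold change -1.23 ± 0.29 SE, limma adjusted p = 0.144). The ratio of Nfkb2 to Relb transcripts was 2.92 and 2.91 in the controls and 5.46 and 6.30 in CD95ko1 and CD95ko2.

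The canonical pair differed unequally. Rela (chr19:5637483-5648130, forward strand), the gene of RelA or p65, the main activating subunit, was at 158.6 and 146.7 TPM in the controls, 85.8 in CD95ko1 and 52.9 in CD95ko2. All CD95ko values lay below the controls, the lowest in CD95ko2, and the mean was 45.4% of the control mean (log2 fold change -1.17 ± 0.35 SE, limma adjusted p = 0.197). Nfkb1 (chr3:135584655-135691547, reverse strand), the gene of p105 and of p50, the DNA-binding partner of RelA, was at 80.2 and 65.4 TPM in the controls, 59.9 in CD95ko1 and 65.0 in CD95ko2. The groups touched: control 2 and CD95ko2 were nearly level, and the difference was within the spread between libraries (log2 fold change -0.21, 95% confidence interval -0.98 to 0.56, limma adjusted p = 0.812). The interval does not show that Nfkb1 was the same in both groups. Rel (chr11:23736847-23770970, reverse strand), the gene of c-Rel, a subunit best known from lymphocytes, was at 0.47 and 3.59 TPM in the controls and 1.85 and 2.59 TPM in CD95ko1 and CD95ko2. The groups overlapped, and its fold change, 0.30 with an interval of -1.41 to 2.01, turned to -0.52 without control 1.

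The relative transcript levels of the subunits can be read from their shares of summed subunit TPM. Proteins and dimers were not measured. Nfkb2 made up 49.6% and 50.6% of it in the controls and 47.6% and 48.9% in CD95ko1 and CD95ko2. Relb made up 17.0% and 17.4% in the controls, against 8.72% in CD95ko1 and 7.76% in CD95ko2. The share of Nfkb1 was 11.2% and 9.68% in the controls and 17.7% and 23.4% in CD95ko1 and CD95ko2. Relb with Nfkb2 exceeded Rela with Nfkb1 in every library, by 1.99 and 2.17 times in the controls and by 1.31 and 1.33 times in CD95ko1 and CD95ko2.

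**Figure D3:**
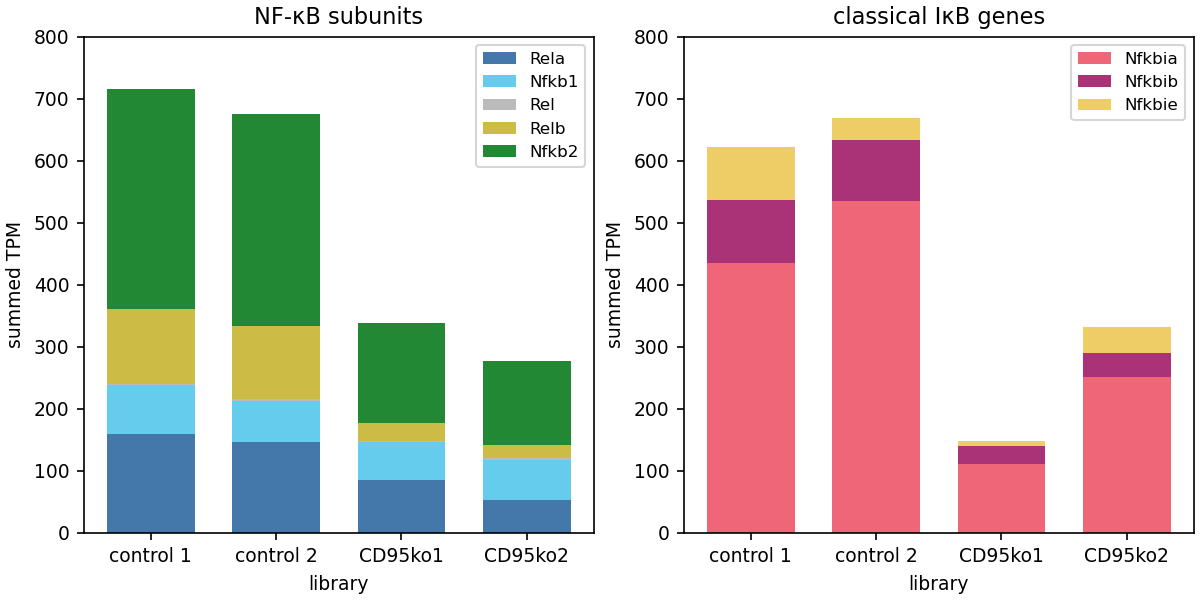
Summed TPM per library of the 5 NF-κB subunits (left) and the 3 classical IκB genes (right), stacked by gene. The subunit sum is 716 and 675 TPM in the controls and 338 and 278 TPM in CD95ko1 and CD95ko2, and the classical IκB sum is 623 and 669 TPM in the controls and 149 and 332 TPM in CD95ko1 and CD95ko2.

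All 5 IκB genes had negative estimates, as did 4759 of all 11167 tested genes. Both CD95ko values lay below both controls for 3 of the 5, against 18.3% of all tested genes. Nfkbia (chr12:55489410-55492647, reverse strand) encodes IκBα, the inhibitor that is degraded and resynthesized fastest and the best-known feedback target of the pathway. It was at 435.3 and 535.0 TPM in the controls, 111.6 in CD95ko1 and 251.0 in CD95ko2. Both CD95ko values lay below the controls but differed 2.25-fold between themselves (log2 fold change -1.52 ± 0.40 SE, limma adjusted p = 0.16). Nfkbib (chr7:28758251-28767512, reverse strand), the gene of IκBβ, was at 101.8 and 98.4 TPM in the controls, 28.4 in CD95ko1 and 38.8 in CD95ko2. The groups were apart, with control 2 at 0.966 times control 1 and CD95ko2 at 1.36 times CD95ko1. The CD95ko mean was 33.6% of the control mean (log2 fold change -1.56 ± 0.35 SE, limma adjusted p = 0.137). Nfkbie (chr17:45555703-45563169, forward strand), the gene of IκBε, was at 85.5 and 35.99 TPM in the controls, 8.55 in CD95ko1 and 42.5 in CD95ko2. Here CD95ko2 lay between the controls and CD95ko1 far below them, and the libraries of each group were more than 2-fold apart (log2 fold change -1.47, interval -3.08 to 0.13, limma adjusted p = 0.373).

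Exons of Nfkbib, as of Nfkb2 and Bcl3, overlap in part with a gene on the opposite strand, and whether the counting used strand is not given in the sources used here, so these 3 values are less certain.

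The nuclear IκB proteins enter the nucleus and modulate p50 and p52 dimers on their target genes. Bcl3 (chr7:19808462-19822770, reverse strand) was at 25.0 and 19.2 TPM in the controls, 1.79 in CD95ko1 and 9.34 in CD95ko2. Both CD95ko values lay below the controls, at 8.1% and 42.3% of the control mean (log2 fold change -2.09 ± 0.67 SE, limma adjusted p = 0.223). Nfkbiz (chr16:55811375-55838899, reverse strand), the gene of IκBζ, which is needed for a set of secondary response genes, was at 27.78 and 27.99 TPM in the controls, 18.2 in CD95ko1 and 34.7 in CD95ko2. The 2 controls were level and the CD95ko values lay on either side of them, so that the estimate, -0.14 (interval -1.17 to 0.88), turned to 0.305 without CD95ko1.

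**Figure D4:**
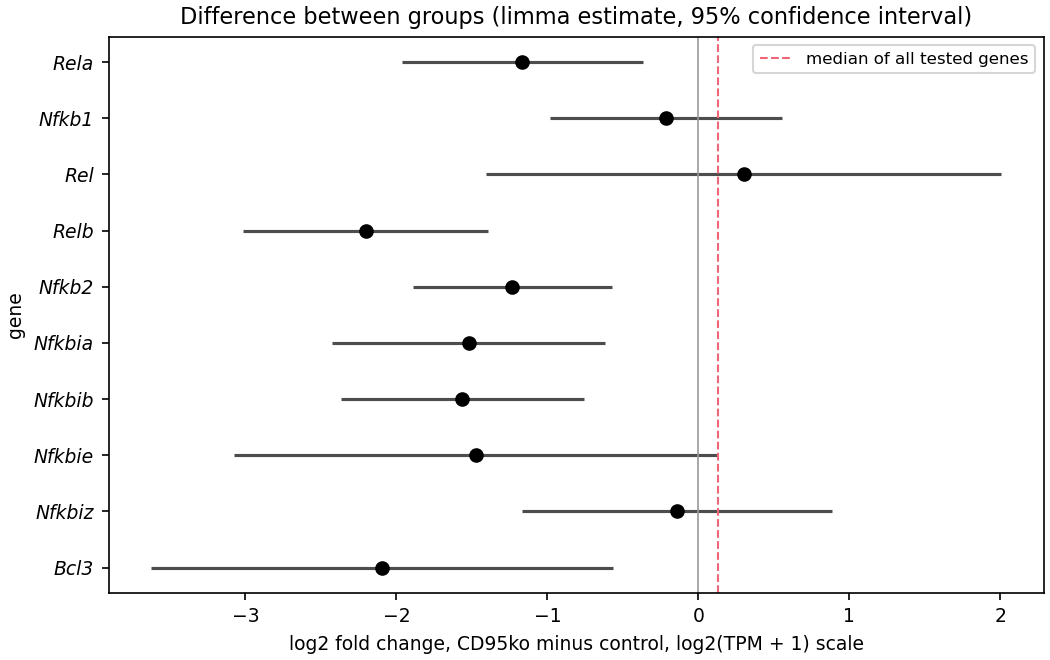
Log2 fold change (CD95ko minus control, log2(TPM + 1) scale) of each of the 10 genes, as the limma estimate (point) with its 95% confidence interval (line), 2 libraries per group. The intervals of Rela, Relb, Nfkb2, Nfkbia, Nfkbib and Bcl3 lie below 0, those of Nfkb1, Rel, Nfkbie and Nfkbiz cross it, and the dashed line marks the median of all tested genes, 0.13.

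The number of members past the adjusted threshold changed with the fit. Robust eBayes, which limits the weight of genes with unusual variance, called 1 member, Relb (adjusted p = 0.0331), and 0.466% of tested genes. Without CD95ko1 4 members passed, as did 9.26% of tested genes, and without CD95ko2 5 members passed, as did 1.74%. In those fits the spread comes from the controls alone, the lone library of the other group is assumed to vary like them, and the estimates move too (Nfkbie from -1.47 to -2.57 and Bcl3 from -2.09 to -3.04 without CD95ko2). Without either control, 0 passed, and 3 rather than 6 members were lower at an unadjusted p under 0.05, where 1.55% of tested genes were without control 1 and 1.99% without control 2.

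The 2 libraries labelled CD95ko also differed from each other. All 5 IκB genes were higher in CD95ko2 than in CD95ko1, as were the subunits Nfkb1 and Rel. Rela, Relb and Nfkb2 were lower in CD95ko2. Of all tested genes, 44.1% were higher in CD95ko2. Nfkbia, Nfkbie and Bcl3 were over 2-fold higher in CD95ko2 on the log2(TPM + 1) scale, as were 9.90% of tested genes, and no member was over 2-fold lower, as were 13.4%. Transcripts of the 3 classical IκB genes per subunit transcript came to 0.87 and 0.99 in the controls, 0.44 in CD95ko1 and 1.20 in CD95ko2. The controls thus lay between the clones, and the mean ratio differed by less than the spread between the CD95ko libraries. Nfkbia made up 69.9% to 79.9% of the classical IκB sum in all 4 libraries. Between the controls, Nfkbie and Rel were over 2-fold apart, as were 14.4% of tested genes. Of the leukocyte markers, Cd68 was at 44.6 and 42.0 TPM in the controls, 17.8 in CD95ko1 and 146.3 in CD95ko2, and Cd14 at 12.0 and 4.13 TPM in the controls, 12.9 in CD95ko1 and 102.0 in CD95ko2. Csf1r went the other way between them, at 1.22 TPM and 0 in the controls, 22.2 in CD95ko1 and 5.07 in CD95ko2, and Ptprc and Adgre1 were listed at 0 in all 4 libraries. With 1 library per clone these differences have no replicate check.

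The order of levels in the controls, by mean, was Nfkbia (485 TPM), Nfkb2 (348), Rela (153), Relb (120), Nfkbib (100.1), Nfkb1 (72.8), Nfkbie (60.8), Nfkbiz (27.9), Bcl3 (22.1) and Rel (2.03). Only the values of Nfkb1 and Nfkbie overlapped among neighbours in this order. In the libraries labelled CD95ko, Nfkbia (181 TPM) overlapped with Nfkb2 (148), and Rela (69.4) with Nfkb1 (62.5). Nfkbib (33.6), Nfkbiz (26.4), Nfkbie (25.5) and Relb (25.5) followed with overlapping values, and then Bcl3 (5.57) with Rel (2.22). Relb thus moved from the fourth place in the controls to the eighth. In rank terms, Relb lay above 87.7% and 89.0% of the tested genes in the controls and above 57.2% and 50.4% in CD95ko1 and CD95ko2. Bcl3 lay above 53.3% and 54.4% in the controls and above 6.95% and 29.7% in CD95ko1 and CD95ko2.

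The profile of Relb over the 4 libraries was compared with those of 7834 other genes with a mean of at least 10 TPM, by the Euclidean distance between log2(TPM + 1) values, each gene centred on its own mean. The closest were Rassf1 (distance 0.213), Psmd8 (0.272) and Zfp503 (0.341). Rassf1 was at 242.2 and 230.4 TPM in the controls and 57.4 and 51.0 TPM in CD95ko1 and CD95ko2. The closest member of the family was Nfkbib, at a distance of 0.886, followed by Nfkb2 at 0.98. With 4 libraries such a likeness describes these libraries only.

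Upstream of the subunits, genes differed in both directions. Of 26 kinases, adaptors and ubiquitin ligase components, all tested, 3 were lower and 1 higher at an unadjusted p under 0.05, none passed over all genes, and the median log2 fold change was 0.26. Groups did not overlap for 6 that were lower and 9 that were higher. These counts are near the shares over all tested genes (5.68% lower and 9.25% higher at that p, and 18.3% and 29.2% without overlap). Traf2, a TNF receptor adaptor, was at 73.1 and 62.1 TPM in the controls and 26 and 32.6 TPM in CD95ko1 and CD95ko2 (log2 fold change -1.18 ± 0.37 SE, limma adjusted p = 0.211). Tank, a TRAF-binding regulator, was at 49.96 and 31.4 TPM in the controls and 21.8 and 5.06 TPM in CD95ko1 and CD95ko2 (limma adjusted p = 0.252). Bcl10, an adaptor of the CARD-MALT1 complex, was at 112.0 and 95.9 TPM in the controls and 80.8 and 20.9 TPM in CD95ko1 and CD95ko2 (limma adjusted p = 0.326), so that its difference came mostly from CD95ko2 (-0.36 without it). Tradd, the adaptor of TNF receptor 1, was higher, at 26.7 and 20.2 TPM in the controls and 62.1 and 79.0 TPM in CD95ko1 and CD95ko2 (log2 fold change 1.55 ± 0.38 SE, limma adjusted p = 0.147).

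The kinases that act on IκB and p100 were looked at for their role, after their values had been seen. Ikbkb, the canonical IκB kinase, was at 36.7 and 22.5 TPM in the controls and 40.7 and 57.6 TPM in CD95ko1 and CD95ko2. Chuk, the kinase of the noncanonical arm, was at 29.9 and 25.3 TPM in the controls and 20.2 and 6.57 TPM in CD95ko1 and CD95ko2. Map3k14, the gene of NIK, overlapped between groups, at 28.6 and 14.6 TPM against 7.11 and 21.9 TPM. None of these 3 had an unadjusted p under 0.05 (limma adjusted p = 0.446, 0.374 and 0.649 for Ikbkb, Chuk and Map3k14).

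Of 12 genes of IκB degradation and precursor processing (the SCF ubiquitin ligase, the NEDD8 system and proteasome subunits), none had an unadjusted p under 0.05, and the median was 0.14. Their smallest adjusted p was 0.555. Of 15 negative regulators 14 were tested, with 1 lower and 1 higher at an unadjusted p under 0.05 and a median of 0.15. These counts are near the shares over all tested genes, 5.68% lower and 9.25% higher at that p. Tnfaip3, the gene of the deubiquitinase A20 and a feedback inhibitor like IκBα, overlapped between groups, at 59.6 and 63.1 TPM in the controls and 42.8 and 72.9 TPM in CD95ko1 and CD95ko2. Traf1, itself an NF-κB target, was at 248.3 and 164.0 TPM in the controls and 100.3 and 76.7 TPM in CD95ko1 and CD95ko2 (log2 fold change -1.19 ± 0.34 SE, limma adjusted p = 0.185). Tnip2, which binds A20, was at 8.14 and 8.93 TPM in the controls and 16.6 and 27.7 TPM in CD95ko1 and CD95ko2 (limma adjusted p = 0.289). Nfkbid, a further nuclear IκB gene that is not among the 10, was at most 1.62 TPM in any library and was not tested. Of 11 coactivators and partners, none was lower and 1 was higher at an unadjusted p under 0.05, again near those shares. The higher one was the chromatin reader Ing4, at 34.1 and 25.5 TPM in the controls and 61.5 and 122.2 TPM in CD95ko1 and CD95ko2 (limma adjusted p = 0.178). The medians of the negative regulators and of the coactivators, 0.15 and 0.13, turned to -0.057 and -0.068 under quantile normalization, and that of the upstream genes turned to -0.097 without control 2.

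Target genes of the pathway were lower more often than higher. Of 34 textbook targets outside the 10 members, 31 were tested, and Cxcl2, Il6 and Bcl2a1b did not pass the filter on low values. At an unadjusted p under 0.05, 13 were lower and 1 was higher, none passed over all genes, and the median log2 fold change was -0.81, against 0.13 for all tested genes. Over all tested genes 5.68% were lower and 9.25% higher at that p. Groups did not overlap for 16 targets that were lower and 1 that was higher, against 18.3% and 29.2% of all tested genes. Icam1 and Saa3, listed at 0 in both libraries labelled CD95ko, passed the filter through the controls alone. Their direction and the lack of overlap were fixed once they were kept, and both are among the 13 and the 16. The list shares Tnfaip3, Tnip1, Traf1 and Zc3h12a with the negative regulators, and without these 12 of 27 were lower and 1 higher. Leaving out control 1, control 2, CD95ko1 or CD95ko2 gave 8, 7, 16 and 17 lower targets, where 1.55%, 1.99%, 11.9% and 5.36% of tested genes were lower. Ccl2, a monocyte chemokine, was at 123.1 and 45.6 TPM in the controls, 2.29 in CD95ko1 and listed at 0 in CD95ko2 (limma adjusted p = 0.0594). It passed with robust eBayes (adjusted p = 0.0258) and with the replicate number as a block (0.0391), and its adjusted p over all alternatives with 4 libraries ran up to 0.213. Csf1, the macrophage growth factor, was at 524.3 and 345.6 TPM in the controls and 91.7 and 130.5 TPM in CD95ko1 and CD95ko2 (log2 fold change -1.95 ± 0.34 SE, limma adjusted p = 0.071, and 0.0389 to 0.222 over those alternatives, the lowest with robust eBayes). Icam1, an adhesion ligand of leukocyte integrins, was at 8.09 and 8.35 TPM in the controls and listed at 0 in both libraries labelled CD95ko (limma adjusted p = 0.108). Plau, the urokinase gene, was higher, at 136.9 and 89.9 TPM in the controls and 171.5 and 459.1 TPM in CD95ko1 and CD95ko2 (limma adjusted p = 0.246).

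**Figure D5:**
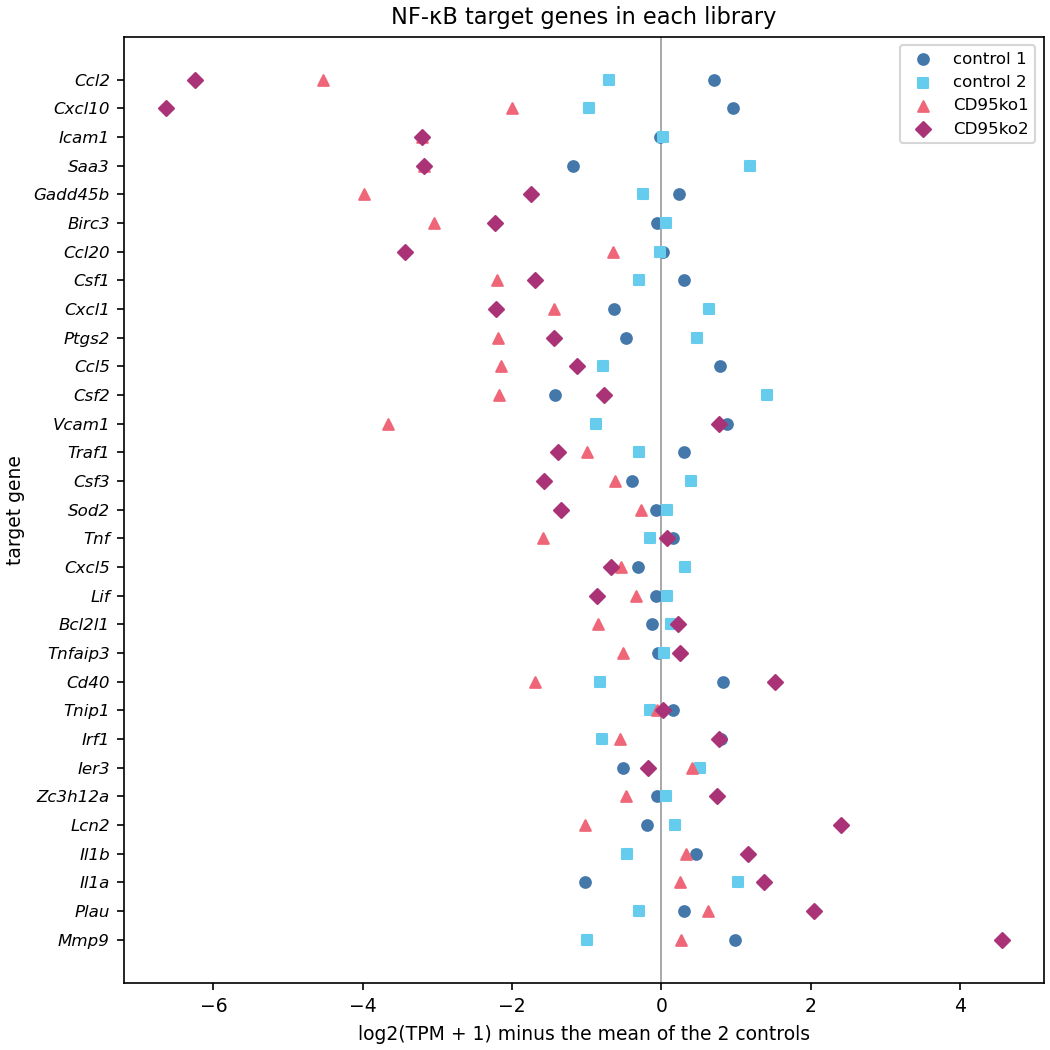
Log2(TPM + 1) of each of the 31 tested NF-κB target genes in the 4 libraries, minus the mean of the 2 controls, 1 point per library, with genes ordered by log2 fold change. Both CD95ko points lie left of both control points for 16 genes and right of them for Plau alone, and the 2 CD95ko points lie furthest apart for Cxcl10, Vcam1 and Mmp9.

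For some targets the 2 libraries labelled CD95ko lay further apart than the group means on the log2(TPM + 1) scale. For Cxcl10 that distance rests on a listed 0 in CD95ko2. The genes in this paragraph were picked after their values were seen. Lcn2, which encodes the siderophore-binding protein lipocalin 2, was at 383.4 and 496.8 TPM in the controls, 214.1 in CD95ko1 and 2323 in CD95ko2. Mmp9, a matrix metalloproteinase, was at 66.6 and 16.1 TPM in the controls, 39.8 in CD95ko1 and 802 in CD95ko2. Vcam1 was at 76.3 and 21.9 TPM in the controls, 2.32 in CD95ko1 and 70.7 in CD95ko2. CD95ko2 was the higher of the CD95ko libraries in these 3 genes and the lower in others: Cxcl10, a T cell chemokine, was at 192.7 and 49.9 TPM in the controls, 23.8 in CD95ko1 and listed at 0 in CD95ko2. Ccl20, also a chemokine, was at 62.95 and 61.3 TPM in the controls, 39.3 in CD95ko1 and 4.83 in CD95ko2. Other targets were low in both clones: Birc3, which encodes the ubiquitin ligase cIAP2, was at 24.8 and 27.2 TPM in the controls and 2.26 and 4.73 TPM in CD95ko1 and CD95ko2, and Cxcl1, a neutrophil chemokine, was at 730 and 1767 TPM in the controls and 420.0 and 244.1 TPM in CD95ko1 and CD95ko2.

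Targets with and without a κB match in the promoter were then set side by side. A window was at hand for 23 of the 31 tested targets, and 10 of these (43.5%) held a match. Of the 10 with a match, 4 were lower at an unadjusted p under 0.05, with a median log2 fold change of -0.56. Of the 13 without, 6 were lower, with a median of -1.19. Icam1 and Saa3, kept through the controls alone, are among these 6. Over all tested genes 5.68% were lower at that p, and the median was 0.13. Among the members, Nfkbib and Rela, with no match in their windows, had log2 fold changes of -1.56 and -1.17, set beside -1.23 and -1.52 for Nfkb2 and Nfkbia, with matches. Rel, with a match, had overlapping groups. Distal elements lie outside these windows.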

How the data were processed

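Per the file headers, each of the 4 tables gives a TPM value, deposited by the authors, for 24411 gene symbols. STAR 2.6.0, RSEM 1.3.0 and mm10 are listed in the submitters' processing notes; their settings, the annotation and the use of strand are not given in the sources used here. TPM keeps no read number, so depth is unknown and no counting interval or floor could be given. Per the labels' protocols, poly(A) RNA was fragmented, tailed, reverse transcribed by a SMART-seq2-like chemistry and amplified by PCR.

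Groups came from the sample titles. Genes with at least 1 TPM in at least 2 libraries were kept (11167 genes, all 10 members among them), and log2(TPM + 1) values were compared with limma 3.58.1 (R 4.3.3; eBayes with trend, two-sided, Benjamini-Hochberg over all genes tested, threshold 0.05). Fold changes are on this scale, which understates those of low genes. The procedure was tested on simulated normal values with known changes, which checks the code and not how well the model suits these libraries. Positions are from GENCODE M21 (GRCm38, the same assembly as mm10), promoters from RefSeq (GRCm38.p6). Of the members, Nfkb2, Nfkbib and Bcl3 share exon bases with a gene on the opposite strand (at most 14.5% of their exon bases per gene). Reads there cannot be told apart if the counting did not use strand. Skp1 was found as Skp1a, and Ly6g had no row. One more marker of the leukocyte list as first drawn up was left out and is not reported here.

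Members, lists and tests were chosen with earlier results of these data known. Beside the members, the genes named were, from each list, up to 3 per direction with the smallest unadjusted p under 0.05 and groups that did not overlap, any past the threshold, and the 3 closest in profile to the member with the smallest p. Others are named as chosen after their values were seen, or for their role. Alternatives were quantile normalization, a pseudocount of 0.1, no filter, no variance trend, robust eBayes, the replicate number as a block, and leaving out each library.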

Additional observations from a re-analysis of the deposited data

How the results depend on the processing

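Under the alternatives that used all 4 libraries, each member kept the sign of its estimate, and 6 members, all lower, had an unadjusted p under 0.05 in every one. Members past the adjusted threshold numbered 0 in limma as reported (6 at an unadjusted p under 0.05) and 1 with robust eBayes. Leaving out a library gave 0 to 5 such members, and 3 to 7 lower members at an unadjusted p under 0.05. These fits do not share a background, so the members' counts cannot be compared between them. Of all tested genes, 1.55% and 1.99% were lower at that p without control 1 and control 2. The shares were 11.9% and 5.36% without CD95ko1 and CD95ko2. The estimate ranged over the libraries left out from -2.42 to -1.99 for Relb, from -1.35 to -1.11 for Nfkb2, from -2.1 to -0.94 for Nfkbia, from -1.51 to -0.822 for Rela, from -1.78 to -1.35 for Nfkbib, from -0.357 to -0.0658 for Nfkb1, from -2.57 to -0.378 for Nfkbie, from -3.04 to -1.15 for Bcl3, from -0.59 to 0.305 for Nfkbiz, from -0.521 to 1.12 for Rel and from -1.42 to 0.165 for Fas.

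Over all genes, 6 passed as reported, 0 with quantile normalization, a pseudocount of 0.1, no filter or no variance trend (1862, 1553, 1636 and 1531 at an unadjusted p under 0.05), 52 with robust eBayes and 0 to 1034 with a library left out (0 without either control, 1034 without CD95ko1 and 194 without CD95ko2). A fit without a CD95ko library takes its spread from the controls alone. The SD over genes of the log2 difference was 0.662 for the controls and 1.04 for the CD95ko pair. The cause of the changes in these counts was not tested. Same-numbered libraries did not deviate together (correlation over genes -0.081). With the replicate block 2 genes passed and 0 members.

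The median of the targets stayed between -1.2 and -0.73. Quantile normalization moved the median of the coactivators to -0.0676 and of the negative regulators to -0.0573. With a library left out the latter ranged from -0.0983 to 0.313 and that of the upstream genes from -0.0974 to 0.364. The subunit sum stayed at 39.9% to 48.6% and the classical IκB sum at 23.0% to 51.4% of the control mean. Depth is unknown, so what a value of 0 can hide cannot be said.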

Other observations

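Relb and Bcl3 lie 179 kb apart on chromosome 7, the same chromosome as Nfkbib, and Rela and Nfkb2 share chromosome 19 with Fas. The 5 tested genes between Relb and Bcl3 had a median log2 fold change of -0.50, and 3 of the 5 were negative. The 28 tested genes within 500 kb of the pair, both left out, had a median of -0.037 with 14 negative. The median was -0.079 over 779 tested genes of chromosome 7 and -0.04 over 385 of chromosome 19, against 0.13 over all tested genes.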
